A study of Mus musculus with 6 samples.

Results

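The 10 positional factors described here are Tbx2, Tbx3, Tbx4, Tbx5, Tbx15, Tbx18, Pitx1, En1, Prrx1 and Twist2, transcription factors that pattern the limbs, the body wall and the dermis. They were taken as the rows of the deposited expression table whose symbol equals a name on this list, and 9 of the 10 had such a row among 46958 rows. Pitx1 had none of its own and appeared only in a row merged with the overlapping noncoding RNA Gm28760, which is called the Gm28760,Pitx1 row and counted apart. Messenger RNA was sequenced in fibroblasts grown from the dermis of newborn mice, from wild type (RORγ+/+) animals and from animals labelled as lacking the nuclear receptor RORγ (RORγ-/-). For 24 h the cells had 100 nM of 20(OH)L3 (from lumisterol), 20(OH)Cholesterol or 20(OH)7DHC (from 7-dehydrocholesterol), in 0.1% ethanol, which gave 6 libraries with 1 library for each genotype and sterol. All cells had been expanded in serum with mouse FGF and used at early passage, and all were treated in 10% charcoal-stripped serum. Cells of different mice were pooled, and each genotype may come from a single pool, so p-values measure the spread between these libraries only. No library with ethanol alone was analysed here. Unless stated otherwise, the 3 values of a genotype are in the order just given for the sterols.

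T-box proteins bind DNA through a shared domain, and many are expressed in restricted parts of the embryo. In mouse limb buds Tbx5 marks the forelimb, while Pitx1 and its target Tbx4 mark the hindlimb, and En1 is a homeobox factor of the ventral limb ectoderm that also marks a lineage of dorsal dermal fibroblasts. Prrx1 and Twist2 are broad factors of limb and dermal mesenchyme, and cultured skin fibroblasts are known to keep part of the positional program of the site they came from.

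The values are FPKM, fragment counts divided by transcript length and library size. Values of low genes were near multiples of a single fragment, which gave an estimated 12500000 to 13100000 fragments in the wild-type libraries and 9000000, 7750000 and 13400000 in the libraries labelled RORγ-/-. Across rows, libraries correlated at 0.944 to 0.95 within wild type, 0.884 to 0.934 within the other label and 0.82 to 0.87 between them. Short transcripts were raised in 2 libraries labelled RORγ-/-, with a median log2 difference from wild type of 1.23 with 20(OH)L3 and 1.03 with 20(OH)Cholesterol for protein-coding genes under 1 kb. For the 5897 protein-coding rows of 2.5 to 6.6 kb, the size range of the positional factors, the medians were -0.18, -0.19 and -0.02. The Y-linked transcript Ddx3y read 7.19 to 9.49 FPKM in wild type and 0 to 1.22 FPKM in the libraries labelled RORγ-/-. The makeup of the pools by sex and the genotype cannot be told apart. Of 10 fibroblast markers 8 had a row of their own, which summed to 6870 to 7180 FPKM in wild type and 4470 to 5900 in the others, but Vim made up much of the latter. Vim read 2840 to 3340 FPKM in wild type and 4070 to 5010 FPKM in the libraries labelled RORγ-/-, and the other 7 markers were lower there without overlap. Col1a1 read 1120 to 1460 against 254 to 548 FPKM, Col1a2 881 to 1060 against 51.5 to 182, Thy1 192 to 198 against 17.6 to 108, Pdgfrb 48.0 to 57.6 against 20.3 to 42.0 and Fbln1 29.3 to 48.2 against 6.66 to 16.2 FPKM. The matrix genes Dcn and Lum, which mark dermal fibroblasts, read 1150 to 1490 against 5.74 to 21.2 FPKM and 10.2 to 19.3 against 0 to 0.0687 FPKM. Markers of other skin cells were low: the 7 keratinocyte markers summed to 4.2 to 5.49 FPKM in wild type and 6.33 to 12.3 FPKM in the libraries labelled RORγ-/-, with Trp63 and Krt1 at most 0.034. Within this list Krt14 read 0 to 0.0862 against 0.244 to 3.75 FPKM and Krt10 3.87 to 5.13 against 5.85 to 8.32 FPKM. Krt5 and Cdh1 leaned the other way with overlap, at 0.115 to 0.457 against 0 to 0.13 FPKM and 0.0264 to 0.129 against 0 to 0.0708 FPKM. The 5 leukocyte markers summed to 6.31 to 7.88 and 6.88 to 13.0 FPKM, with Adgre1 and Cd3e at 0 in all 6 libraries. Most of this sum was Cd68, at 2.55 to 4.21 FPKM in wild type and 3.35 to 7.86 in the others, and Csf1r, at 3.67 to 3.93 and 3.49 to 5.18. Endothelial markers summed to at most 3.19 FPKM, with Cdh5 at up to 0.0209 in wild type and 0.136 to 2.53 in the others. Emcn went the other way, with 0.556 to 1.22 FPKM in wild type and 0 to 0.446 in the others. Melanocyte and Schwann markers summed to at most 4.02 FPKM, with Sox10 at up to 0.0303 in wild type and 2.41 in the others. Mitf again went the other way, with 0.526 to 0.63 FPKM in wild type and 0 to 0.341 in the others. The sums were at most 0.855 FPKM for skeletal muscle markers and 10.3 to 12.4 FPKM for pericyte and smooth muscle markers. Within the latter Notch3 read 1.75 to 2.27 FPKM in wild type and 0.459 to 0.992 in the others, and Myh11 2.36 to 2.87 and 2.73 to 6.08. The part of these differences in the results was not tested.

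In wild type the broad mesenchymal factors Twist2 and Prrx1 stood highest and the T-box factors of limb type, Tbx5 and Tbx4, lowest. Mean levels per transcript length were 148 FPKM for Twist2, 61.3 for Prrx1, 18.9 for En1, 11.5 for Tbx3, 10.6 for Tbx15, 3.33 for Tbx18, 1.85 for Tbx2, 0.648 for Tbx5 and 0.474 for Tbx4. The merged Gm28760,Pitx1 row had 12.2 FPKM. The 3 wild-type libraries of Twist2, Prrx1 and En1 did not overlap with those of the next factor in this order, whereas the merged row, Tbx3 and Tbx15 overlapped, as did Tbx5 and Tbx4. In the libraries labelled RORγ-/- the order was different. Tbx15 was first in each of these 3 libraries, with a mean of 61.9 FPKM, followed by Twist2 with 44.0, Prrx1 with 16.0, En1 with 9.61, Tbx3 with 6.14, Tbx18 with 4.09, Tbx2 with 0.689, Tbx5 with 0.46, the merged row with 0.393 and Tbx4 with 0.0673 FPKM. Neighbours from Prrx1 to Tbx18 and from Tbx2 to the merged row overlapped. The ranges of Tbx15 and Twist2 overlapped too, although Tbx15 was at or above Twist2 in every single library.

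**Figure D1:**
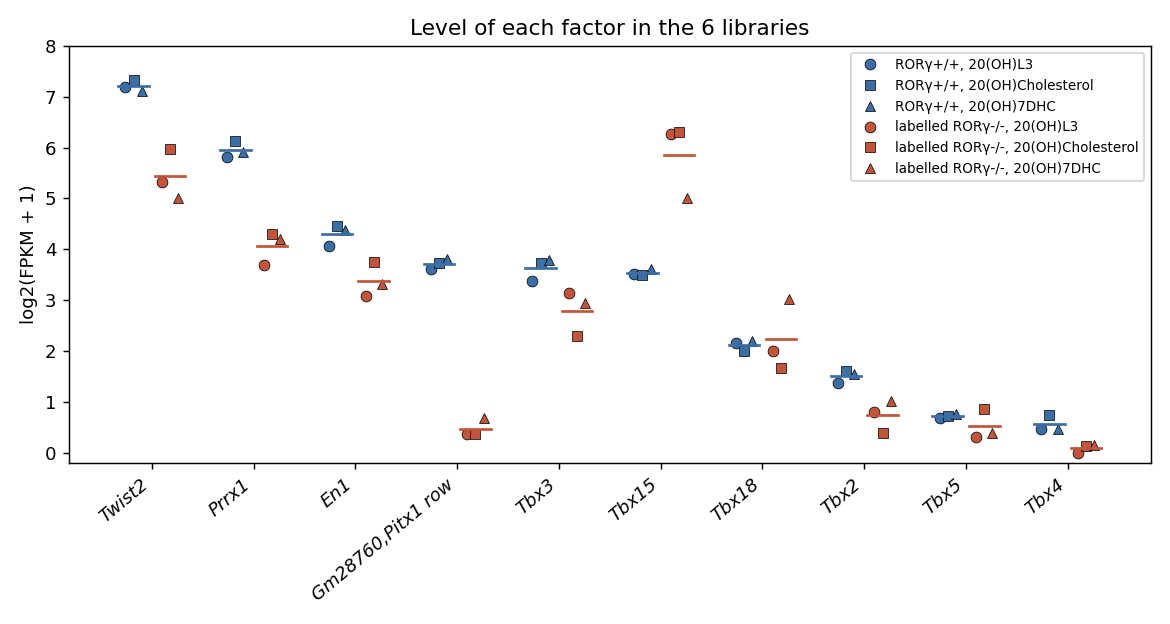
Level of each factor on the log2(FPKM + 1) scale (vertical axis), in wild type (blue) and in the libraries labelled RORγ-/- (red). Each symbol is 1 library and its shape gives the sterol, and the bar is the mean of 3 libraries. Tbx15 lies higher in all 3 red libraries. Twist2, Prrx1, En1, Tbx2, Tbx3, Tbx4 and the Gm28760,Pitx1 row lie lower in all 3, and Tbx5 and Tbx18 overlap.

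The comparison of the labelled genotypes asked which of these factors differed under the same sterols. Twist2, Prrx1 and En1 were lower in the libraries labelled RORγ-/- and Tbx15 was higher, whereas Tbx2, Tbx3 and Tbx18 did not pass the test. A linear model (limma) with genotype and sterol as additive terms was fitted to log2(FPKM + 1) of the 12673 rows averaging 1 FPKM or more, and a row was called at a Benjamini-Hochberg adjusted p under 0.05. Of the 9 factors with a row of their own, 7 passed the filter, and 3 of these were called lower and 1 higher. Among all rows 6.64% were called lower and 2.43% higher, 9.07% in all. The factors were chosen with earlier results of these data known, so their share of calls is a description only. In cultures measured in bulk, fewer cells of a type and less RNA per cell cannot be told apart. The median log2 difference of the 7 was -0.84, against 0.00 over all rows tested. The libraries of the 2 labels did not overlap for 6 of the 7, of which 1 was higher and 5 lower, and among all rows tested 43.1% did not overlap, 20.2% higher and 22.9% lower.

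Twist2, a basic helix-loop-helix factor of dermal and limb mesenchyme (chromosome 1, 91801461 to 91848028, GRCm38), was the most abundant factor in wild type. It had 145, 159 and 138 FPKM in wild type, and 39.3, 61.6 and 31.1 FPKM in the libraries labelled RORγ-/-. All 3 libraries labelled RORγ-/- lay below all 3 of wild type. The mean fell from 148 ± 10.7 to 44.0 ± 15.8 FPKM (SD, n = 3), or -1.78 on the log2 scale (SE 0.23, limma adjusted p = 0.0173). Gm29100, an antisense RNA that overlaps Twist2, also fell, from 17.1, 18.3 and 18.9 FPKM to 2.87, 5.81 and 4.43 FPKM (log2 -1.87, limma adjusted p = 0.0132). The strand setting of the counting is not given, so reads of the antisense RNA and of Twist2 cannot be told apart. Its close relative Twist1, a factor of cranial and limb mesenchyme, had 38.6 ± 2.84 FPKM in wild type against 30.9 ± 2.53 (log2 -0.31, limma adjusted p = 0.284), and was named here as a relative after its values were seen.

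Prrx1, a paired-related homeobox factor of limb bud and dermal mesenchyme (chromosome 1, 163245119 to 163313710), was lower to a similar degree. Its levels were 55.0, 69.2 and 59.5 FPKM in wild type and 11.9, 18.6 and 17.5 FPKM in the libraries labelled RORγ-/-, without overlap. The mean fell from 61.3 ± 7.27 to 16.0 ± 3.56 FPKM (SD, n = 3), or -1.89 on the log2 scale (SE 0.19, limma adjusted p = 0.00871). Within a library the ratio of Prrx1 to Twist2 was 0.379 to 0.435 in wild type and 0.301 to 0.561 in the others, ranges that overlapped. Prrx2, the relative that shares part of the function of Prrx1 in mouse limbs, had 54.4 ± 10.5 and 44.3 ± 24.3 FPKM and did not pass (log2 -0.42, limma adjusted p = 0.381). The libraries labelled RORγ-/- were uneven for Prrx2, with 39.0, 70.7 and 23.0 FPKM.

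En1 (chromosome 1, 120602418 to 120607992) was lower as well, by less. It had 15.8, 20.9 and 19.9 FPKM in wild type and 7.48, 12.4 and 8.96 FPKM in the libraries labelled RORγ-/-, again without overlap. The mean fell from 18.9 ± 2.7 to 9.61 ± 2.51 FPKM (SD, n = 3), or -0.92 on the log2 scale (SE 0.19, limma adjusted p = 0.0471). An estimated 480, 659 and 633 fragments in wild type and 163, 233 and 291 in the others lay behind these levels, and the 95% Poisson intervals of the libraries, 14.5 to 22.6 FPKM in wild type and 6.37 to 14.1 FPKM in the others, did not meet. These intervals cover counting error only. En2, its relative, was at 0 in 5 libraries and at 0.0237 FPKM in the last.

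The promoter windows of the 3 factors that fell are shown because these are the 3 factors called lower. RefSeq (GRCm38.p6) gave a window of 250 bases before to 50 bases after the start for 5 of the 10 factors, and it is printed 5′ to 3′ on the strand of the gene. Capitals mark matches on either strand to the GC box GGGCGG, the promoter element CCAAT, the TATA element TATAAA, the core of a T-box site GGTGTGA or the E-box form CAGATG, and overlapping matches run together. Other forms of the E-box, such as CACGTG and CAGCTG, were not searched for and stay in lower case. The windows are chr1:91801211-91801510 on the plus strand for Twist2, chr1:163313601-163313900 on the minus strand for Prrx1 and chr1:120602237-120602536 on the plus strand for En1.
Twist2: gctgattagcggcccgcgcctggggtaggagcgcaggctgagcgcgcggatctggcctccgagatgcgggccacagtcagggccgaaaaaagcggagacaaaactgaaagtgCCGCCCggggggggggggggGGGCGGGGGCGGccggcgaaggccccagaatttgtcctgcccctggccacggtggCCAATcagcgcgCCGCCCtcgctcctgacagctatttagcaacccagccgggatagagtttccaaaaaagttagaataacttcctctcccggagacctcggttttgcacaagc
Prrx1: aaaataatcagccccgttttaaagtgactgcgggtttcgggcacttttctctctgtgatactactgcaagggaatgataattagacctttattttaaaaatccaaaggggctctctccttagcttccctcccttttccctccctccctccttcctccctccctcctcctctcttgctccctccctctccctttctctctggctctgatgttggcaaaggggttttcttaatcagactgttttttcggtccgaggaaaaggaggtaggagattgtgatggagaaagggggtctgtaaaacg
En1: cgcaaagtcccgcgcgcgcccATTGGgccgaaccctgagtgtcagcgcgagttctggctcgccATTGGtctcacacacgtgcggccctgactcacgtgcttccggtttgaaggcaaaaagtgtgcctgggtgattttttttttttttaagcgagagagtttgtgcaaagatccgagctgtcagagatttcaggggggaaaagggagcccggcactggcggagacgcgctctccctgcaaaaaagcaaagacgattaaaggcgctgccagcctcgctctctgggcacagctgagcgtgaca
The 3 windows differ in composition. That of Twist2 is 64.7% G or C with 25 CpG and holds 4 matches to the GC box and 1 to CCAAT, that of En1 is 57.0% with 23 CpG and 2 matches to CCAAT, and that of Prrx1 is 47.7% with 6 CpG and none of the 5 motifs. Over all 32851 windows the median was 52.7% G or C with 7 CpG, and 35.7% held the GC box, 37.4% the promoter element CCAAT, 13.6% the TATA element, 3.98% the T-box core and 17.2% the E-box form CAGATG. No window of the 3 held the T-box core, and a match or its absence is a description of these letters only.

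Tbx15, a T-box factor of dorsal dermis, pigment pattern and limb skeleton in the mouse (chromosome 3, 99240381 to 99354259), was the only one of the 7 called higher. In wild type it was nearly constant, with 10.4, 10.3 and 11.2 FPKM. The libraries labelled RORγ-/- had 76.5, 77.9 and 31.2 FPKM, all above wild type. The rise was 7.39-fold and 7.59-fold with 20(OH)L3 and 20(OH)Cholesterol and 2.78-fold with 20(OH)7DHC, with 1 library on each side and no test of the difference between sterols. The mean rose from 10.6 ± 0.507 to 61.9 ± 26.6 FPKM (SD, n = 3), or 2.33 on the log2 scale (SE 0.34, limma adjusted p = 0.0225). Within each library, the ratio of Tbx15 to Twist2 was 0.0645 to 0.081 in wild type and 1.0 to 1.95 in the libraries labelled RORγ-/-. This ratio joins the factor called higher with a factor called lower, so it is no separate support for either call. A scaling factor shared by all genes cancels in it, but a shift that depends on transcript length does not. Among the libraries labelled RORγ-/-, the smallest ratio and the smallest rise belonged to 20(OH)7DHC.

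Tbx18, the closest relative of Tbx15 on this list and a factor of somite and urogenital mesenchyme (chromosome 9, 87702800 to 87731260), did not follow it. Its levels were 3.43, 2.97 and 3.58 FPKM in wild type and 2.99, 2.16 and 7.12 FPKM in the libraries labelled RORγ-/-, so the labels overlapped and the highest library was 20(OH)7DHC. The log2 difference was 0.11 with a 95% interval of -0.68 to 0.91 (limma adjusted p = 0.813), and it was -0.24 without the 20(OH)7DHC library of either label. The ratio of Tbx15 to Tbx18 was 3.02 to 3.46 in wild type and 25.6, 36.2 and 4.37 in the libraries labelled RORγ-/-. D030062O11Rik, an unclassified transcript that overlaps Tbx18 on the other strand, had 1.19, 1.23 and 0.959 FPKM in wild type and 0.0843, 0.445 and 1.44 FPKM in the others, below the filter. The longest stretch of identical bases between annotated transcripts of Tbx15 and Tbx18 was 23 nt, and between any pair of the 10 genes it was 24 nt.

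**Figure D2:**
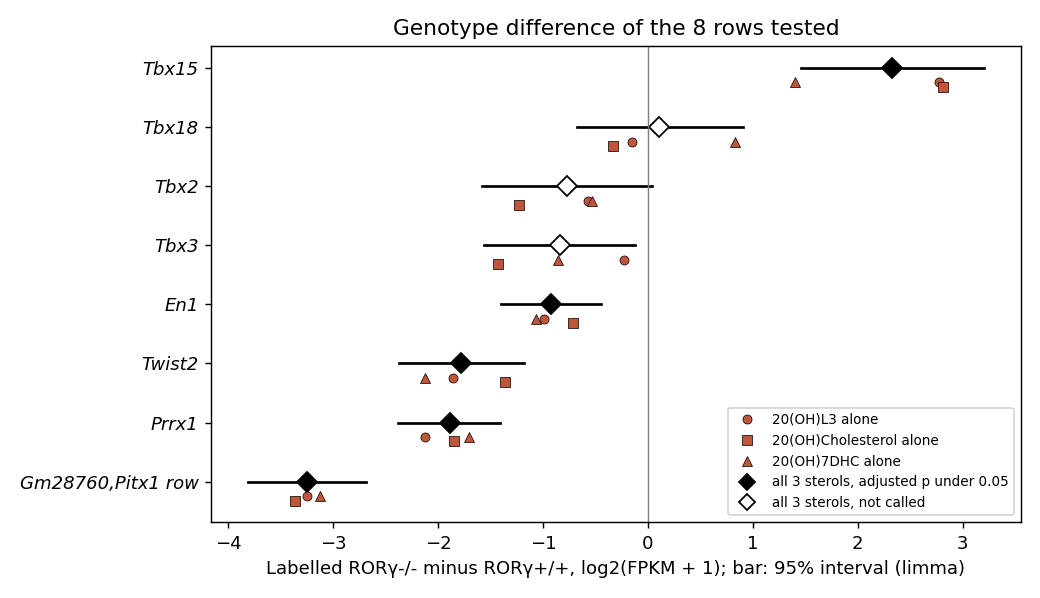
Difference of the libraries labelled RORγ-/- from wild type on the log2(FPKM + 1) scale (horizontal axis) for the 8 rows tested, the Gm28760,Pitx1 row included. Diamonds give the limma estimate over 3 sterols with its 95% interval, filled where the adjusted p was under 0.05, and red symbols give the difference in each sterol alone; Tbx18 is the row whose sterols lie on both sides of 0.

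Tbx2 and Tbx3, related T-box repressors of limb and mammary development, were both at lower values in the libraries labelled RORγ-/- but did not pass. Tbx3 (chromosome 5, 119670669 to 119684724) had 9.36, 12.2 and 12.9 FPKM in wild type and 7.85, 3.91 and 6.66 FPKM in the others, without overlap (log2 -0.84, 95% interval -1.56 to -0.12, limma adjusted p = 0.117). The gap was small with 20(OH)L3, where the levels were 9.36 and 7.85 FPKM. Tbx2 (chromosome 11, 85832551 to 85841948) had 1.57, 2.05 and 1.92 FPKM in wild type and 0.738, 0.301 and 1.03 FPKM in the others (log2 -0.77, 95% interval -1.58 to 0.04, limma adjusted p = 0.162). These low levels rested on an estimated 67, 91 and 86 fragments against 23, 8 and 47. The exact 95% Poisson interval of the 8 fragments, which covers counting error only, was 0.13 to 0.594 FPKM. The antisense RNA Tbx3os1, which overlaps Tbx3, had 1.76, 1.68 and 0.798 FPKM in wild type and 1.14, 0.168 and 0.711 FPKM in the others, and did not pass (limma adjusted p = 0.332).

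The factors that mark limb type were low or, for Pitx1, measured only in a merged row. The Gm28760,Pitx1 row (Pitx1 at chromosome 13, 55825051 to 55836192, with Gm28760 overlapping it on the same strand) had 11.3, 12.2 and 13.0 FPKM in wild type and 0.293, 0.286 and 0.599 FPKM in the libraries labelled RORγ-/-. The wild-type levels were 38.6-fold, 42.8-fold and 21.7-fold higher, without overlap. By the length of Pitx1 the lower values rested on an estimated 6, 5 and 18 fragments, with 95% Poisson intervals of 0.109 to 0.645, 0.0931 to 0.669 and 0.354 to 0.943 FPKM, so these folds are only loosely fixed. On the log2 scale the row fell by 3.25 (SE 0.22, limma adjusted p = 0.00344), and the value cannot be assigned to either gene. Tbx4 (chromosome 11, 85886422 to 85916097) stayed below the filter, with 0.373, 0.663 and 0.384 FPKM in wild type and 0, 0.0933 and 0.109 FPKM in the others. That is an estimated 14, 25 and 15 fragments against 0, 2 and 4, and the library at 0 allows up to 0.113 FPKM, taking 3 fragments as the limit of a count of 0. When rows were not filtered, Tbx4 had an unadjusted limma p of 0.00812 and an adjusted p = 0.121. Tbx5 (chromosome 5, 119832668 to 119885219) was also below the filter, with 0.594, 0.657 and 0.694 FPKM in wild type and 0.244, 0.822 and 0.314 FPKM in the others, and the labels overlapped. Its library labelled RORγ-/- with 20(OH)Cholesterol was the highest of the 6.

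The calls depended on the few libraries. With 1 library for each genotype and sterol, leaving out 1 library gives the same genotype estimate as leaving out both libraries of its sterol. The leave-out runs are therefore 1 distinct check per sterol. Without the 20(OH)7DHC library of either label Prrx1 and Tbx15 kept their call (limma adjusted p = 0.0402 to 0.0407) and so did Twist2 (0.0441), and En1 lost it (0.0743 and 0.0768). Without any 1 library of 20(OH)L3 or 20(OH)Cholesterol none of these genes was called, with limma adjusted p = 0.134 to 0.156 for Twist2, 0.102 to 0.141 for Prrx1, 0.161 to 0.218 for Tbx15 and 0.263 to 0.29 for En1, while every direction held. The Gm28760,Pitx1 row was called without any 1 library of 20(OH)L3 or 20(OH)7DHC, and not without one of 20(OH)Cholesterol (0.08 and 0.0807). With no filter on low rows Prrx1 alone of the 4 was called (limma adjusted p = 0.0374), and with no trend in the prior variance En1 was not (0.0637). After the length trend of each library was removed the same 4 genes were called, with log2 differences of -1.82 for Twist2, -1.65 for Prrx1, -0.95 for En1 and 2.43 for Tbx15.

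The genes next to these factors on the chromosome were examined as well. The nearest protein-coding genes on either side comprised 17 genes that are not on the list, of which 10 passed the filter and 1 was called, lower, a share near the 9.07% of all rows. The other 7 were not tested. That gene was Gorab, 71197 bases from Prrx1, which fell from 8.48, 8.85 and 8.62 FPKM to 2.35, 3.49 and 4.45 FPKM (log2 -1.15, limma adjusted p = 0.0454). Wars2, which ends 1194 bases before Tbx15 and encodes a mitochondrial tRNA synthetase, had 6.65, 3.57 and 2.84 FPKM in wild type and 4.45, 3.36 and 4.57 FPKM in the others (log2 -0.01, limma adjusted p = 0.99). H2afy, the nearest gene above Pitx1, was level in all 6 libraries, at 73.3 to 81.6 FPKM (log2 -0.05, limma adjusted p = 0.875). Bcas3 beside Tbx2 (log2 0.64, limma adjusted p = 0.238), Med13l beside Tbx3 (-0.58, 0.195), Rbm19 beyond Tbx5 (0.39, 0.216), Insig2 beyond En1 (-0.49, 0.157) and Cep162 beside Tbx18 (-0.40, 0.46) did not pass, nor did Asb1 (-0.10, 0.79) and Hdac4 (0.55, 0.25) on either side of Twist2. Of the others, Brip1 beyond Tbx4 had 1.14, 1.43 and 1.43 FPKM in wild type and 0.0163, 0.134 and 0.211 FPKM in the libraries labelled RORγ-/-, without overlap. Its mean lay below the filter, so it was not tested. Nt5e beside Tbx18 and Spag17 beside Tbx15 were below the filter too, at up to 1.15 and 0.31 FPKM. Catsper3 reached 0.0687 FPKM, and Mroh9, Marco and Gm11444 were at 0. Among overlapping or opposite-strand transcripts, Gm29101 at Twist2 reached 1.42 FPKM, Gm26523 and Gm37644 at Prrx1 reached 0.157 and 0.0369, Gm43120 at Tbx15 reached 0.164, and Gm20471 at Prrx1 and Tbx3os2 were at 0. All of these were below the filter. Tbx2 and Tbx4 lie 44.5 kb apart and Tbx3 and Tbx5 148 kb apart, and in each pair the first was the more abundant gene in all 6 libraries.

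Beyond the 10 factors, 3 lists of other positional transcription factors were examined, also chosen with earlier results of these data known. Of 112 genes listed, 106 had a row of their own and 41 passed the filter. None was called higher and 4 were called lower, 9.76% of those tested against 9.07% of all rows, with a median log2 difference of -0.31 against 0.00. Of the 28 homeobox genes tested 3 fell, among them Alx4, a paired-type factor of anterior limb and body wall. Alx4 had 2.45, 3.92 and 3.87 FPKM in wild type and 0.0435, 0.204 and 0.0445 FPKM in the others, without overlap. Its mean fell from 3.41 ± 0.836 to 0.0972 ± 0.0923 FPKM (SD, n = 3; log2 -1.99, limma adjusted p = 0.0235). Of 11 other factors tested, Hand2, a basic helix-loop-helix factor of posterior limb bud, fell from 13.7 ± 1.29 to 3.45 ± 0.747 FPKM (SD, n = 3; log2 -1.73, limma adjusted p = 0.0128). Of the other T-box genes only Tbx1 and Mga passed the filter, and neither was called (limma adjusted p = 0.183 and 0.733). Tbx1 was uneven among the libraries labelled RORγ-/-, with 0.418, 4.74 and 0.856 FPKM against 3.22, 4.21 and 3.70 in wild type.

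Genes known elsewhere as targets or partners of T-box factors or of the limb field were examined as a further list. It was chosen with earlier results of these data known, so its share of calls is a description only. It was not divided into genes that such factors raise and genes that they lower, so its median has no set reading. Of 20 listed, 13 were tested, 4 fell and none rose, 30.8% of those tested against 9.07% of all rows, and the median log2 difference was -0.91. Fgf10, the growth factor that Tbx5 and Tbx4 induce in mouse limb and lung buds, had 22.5, 25.1 and 24.2 FPKM in wild type and 0.842, 1.35 and 2.85 FPKM in the others (log2 -3.29, SE 0.26, limma adjusted p = 0.00519). Grem1, a secreted BMP antagonist of the limb bud, fell from 78.1 ± 11.4 to 23.8 ± 1.68 FPKM (SD, n = 3; limma adjusted p = 0.0124). Gja1, which encodes the gap junction protein connexin 43, fell from 73.4 ± 0.762 to 26.9 ± 4.37 FPKM, and Ndrg1, a stress-induced gene, from 42.1 ± 4.63 to 16.3 ± 1.59 FPKM (SD, n = 3; limma adjusted p = 0.0191 and 0.0225). The mesenchymal factors Snai2 and Zeb1 did not pass, with log2 differences of -0.29 and -0.96 (limma adjusted p = 0.378 and 0.0676), and were named after their values were seen.

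**Figure D3:**
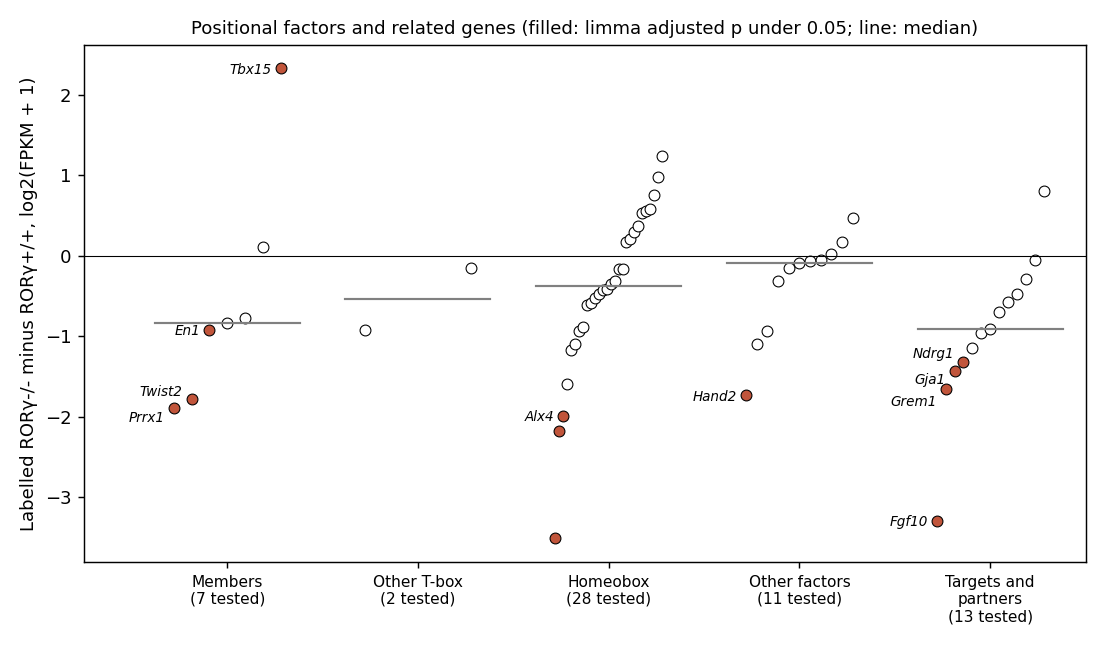
Difference of the libraries labelled RORγ-/- from wild type on the log2(FPKM + 1) scale (vertical axis) for each gene tested, by list. Each point is 1 gene, filled where the limma adjusted p was under 0.05 and named where the text describes it, and the grey line is the median of the list; Tbx15 is the filled point above 0, and the other filled points lie below it.

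Tbx15 and Prrx1 had the largest differences in each direction among factors with a row of their own and 5 FPKM or more on average, although Twist2 exceeded Prrx1 after quantile normalization (log2 -2.03 against -1.95), with the length trend removed (-1.82 against -1.65) and without a 20(OH)Cholesterol library (-1.99 against -1.92). The rows most like them over the 6 libraries were found by Pearson correlation of log2(FPKM + 1) among 8285 other rows. The 3 nearest to Tbx15 were Capzb, Gpx1 and Fbxo22 (r = 0.9992, 0.9992 and 0.9989). Gpx1 had 271, 250 and 273 FPKM in wild type and 1550, 1530 and 642 FPKM in the others, with the lowest of the latter again in 20(OH)7DHC. The 3 nearest to Prrx1 were Nfkb1, A4galt and Rasl12 (r = 0.9991, 0.9985 and 0.9984). Such values are common with 2 labels and 6 libraries, since 678 rows reached an r over 0.95 with Tbx15 and 494 with Prrx1.

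The sterols were compared at the same dose and time with 2 libraries each, 1 of each label. 20(OH)Cholesterol and 20(OH)7DHC differ by a double bond in the ring system, and lumisterol, the parent of 20(OH)L3, is a stereoisomer of 7-dehydrocholesterol. The additive fit averages each sterol difference over both labels, and a sterol difference that varies between the labels adds to its error. In 3 pairs of sterols none of the 7 factors was called, and none had an unadjusted limma p under 0.05. Without the wild-type 20(OH)7DHC library 5 of the 21 comparisons had an unadjusted p under 0.05, and again none was called. Among all rows 5 were called for 20(OH)L3 against 20(OH)7DHC, 0.0395%, all lower. For 20(OH)Cholesterol against 20(OH)7DHC 5 were called as well, 0.00789% higher and 0.0316% lower, and 0% for 20(OH)L3 against 20(OH)Cholesterol. In that last pair 242 rows had an unadjusted p under 0.05. The limma adjusted p of the factors was at least 0.701, 0.83 and 1.0 in these pairs, and at least 0.891 when adjusted over the 3 pairs together. For Twist2 the log2 difference of 20(OH)Cholesterol from 20(OH)7DHC was 0.58 (95% interval -0.15 to 1.31). For Tbx18 it was -0.79 (95% interval -1.75 to 0.18), and for Tbx15 it was 0.59 (95% interval -0.47 to 1.66). For En1 the difference of 20(OH)L3 from 20(OH)Cholesterol was -0.52 (95% interval -1.10 to 0.06). The intervals of the 7 factors reached from -1.75 to 1.66 over the 3 pairs, so the data leave room for differences of up to these sizes as averages over both labels. They set no limit on a sterol difference within a single label.

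Each of the 7 factors tested had a larger SD of log2(FPKM + 1) over the sterols in the libraries labelled RORγ-/- than in wild type. Across all rows these libraries also correlated less with each other, at 0.884 to 0.934 against 0.944 to 0.95 within wild type. The wider spread was therefore not particular to the factors. Twist2, Tbx15 and Tbx18 are given as examples chosen after their values were seen. For Twist2 the difference of 20(OH)Cholesterol from 20(OH)7DHC was 0.20 in wild type and 0.96 in the others, on the log2 scale. For Tbx15 the log2 differences of 20(OH)L3 and of 20(OH)Cholesterol from 20(OH)7DHC were -0.10 and -0.11 in wild type, and 1.27 and 1.30 in the libraries labelled RORγ-/-. For Tbx18 they were -0.05 and -0.21 in wild type, and -1.02 and -1.36 in the others. Each of these is 1 library against 1, with no replicate and no test. Estimated depth was also higher in the library labelled RORγ-/- with 20(OH)7DHC, at 13400000 fragments against 9000000 and 7750000 for the other sterols of that label. Genes under 1 kb set this library apart too, with a median log2 difference from wild type of 0.03, against 1.23 and 1.03 for the other sterols. The part of depth and of transcript length in these values was not tested.

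**Figure D4:**
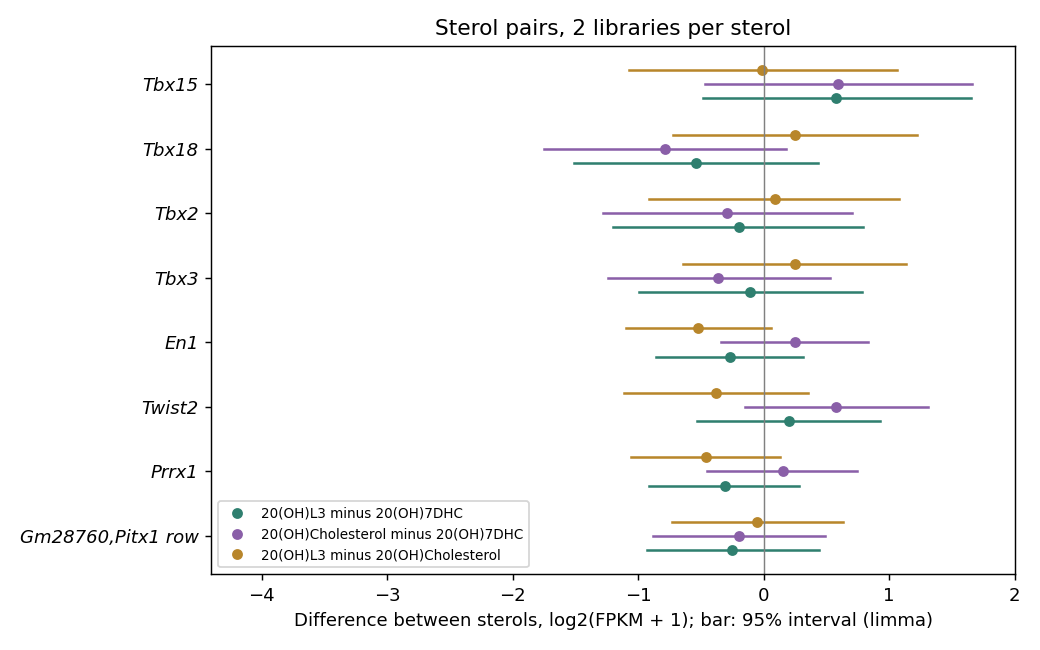
Difference between sterols on the log2(FPKM + 1) scale (horizontal axis) for the 8 rows tested, from the limma fit with 2 libraries per sterol. Points are estimates and bars are 95% intervals, coloured by the pair of sterols, and each interval includes 0.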

How the data were processed

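The deposited values are FPKM per gene in 1 table with 1 column for each of the 6 libraries, per the file headers. STAR 2.5.4b, Cufflinks 2.2.1, Cuffdiff and the build GRCm38 are named in the submitters' processing notes. Annotation, strand setting and filters were not given in the sources used here. FPKM divide by transcript length and library size, so a gain in a few abundant or short genes lowers the rest.

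Libraries were grouped by the genotype and sterol of their titles. The genotypes are as labelled, and a check of the targeted gene is not reported here. The members and lists were chosen with earlier results of these data known. An additive model of sterol and genotype was fitted to log2(FPKM + 1) with limma 3.58.1 (R 4.3.3), with an intensity trend, 2-sided, with 2 residual degrees of freedom; fold changes on this scale understate those of low genes. The fit was tested on simulated data. An exact permutation test of 3 against 3 libraries cannot go below 0.1 and was not used. All 10 factors were named, with up to 4 called genes per list and direction with the largest differences, and the 3 rows most like the called factor with the largest difference in each direction. Some called list genes are not reported here. Merged rows stayed out of lists. Coordinates, lengths and neighbours are from GENCODE M21. Fragments were estimated from low values of single-transcript genes of 900 to 4000 nt, after 200 nt were taken off each length, of which 96.8% to 98.2% per library were whole within 0.05. For genes with several transcripts the longest was used, so these counts are approximate. Alternatives were other pseudocounts (0.1 and 0.5), filters, scalings and priors, no sterol or genotype term, removal of the length trend (single-gene rows of at least 300 nt), and leaving out each library or sterol. The same rows with that trend left in were added after seeing the data. Tables and figures used Python 3.11.15, pandas 2.3.3 and matplotlib 3.10.9.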

Additional observations from a re-analysis of the deposited data

Results flagged for a closer look

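The difference between labels had opposite signs in different sterols for 2 factors. For Tbx18 the log2 difference of the library labelled RORγ-/- from wild type was 0.83 with 20(OH)7DHC, against -0.15 with 20(OH)L3 and -0.33 with 20(OH)Cholesterol. For Tbx5, which lay below the filter on low rows, it was 0.14 with 20(OH)Cholesterol, against -0.36 with 20(OH)L3 and -0.37 with 20(OH)7DHC, at an estimated 8 to 34 fragments per library. Each value compares 1 library with 1, and the difference between sterols was not tested.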

How the results depend on the processing

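Against 4 factors called between the labels, 1 was called with no filter on low rows, 0 without both libraries of 20(OH)Cholesterol or of 20(OH)L3, and 0 to 3 when 1 library was left out. Unadjusted, 4 and 5 of the 7 had a limma p under 0.05 without these 2 sterols. The other alternatives called 3 or 4. Without 1 library or both libraries of a sterol, the additive fit estimates the same genotype difference, from 2 sterols with 1 residual degree of freedom. Leaving out 1 library and leaving out its sterol are therefore not separate checks. Over all rows, 1150 calls became 267 with no filter, 2071 with no sterol term, 2010 without 20(OH)7DHC, 0 without 20(OH)Cholesterol (1893 at an unadjusted p under 0.05), 127 without 20(OH)L3, 2140 in rows of 1 gene, 2185 in these once their length trend was taken out, and 0 to 1925 with 1 library left out. Quantile normalization gave 576 higher and 842 lower rows, against 308 and 842, leaving out both 20(OH)7DHC libraries 1139 and 871, and taking out the length trend 913 and 1272. For the other positional factors, 4 calls became 0 with no filter, 2 when rows had to average 5 FPKM, 10 in rows of 1 gene and 9 in these once their length trend was taken out, 0 without 20(OH)Cholesterol or 20(OH)L3, and 0 to 4 with 1 library left out. The cause was not tested beyond the number of libraries and rows. Sterol pairs gave 0 calls among the factors in every alternative run. Tbx18 turned to -0.24 without both 20(OH)7DHC libraries, and ranged from -0.24 to 0.34 with 1 library left out; no other factor tested changed direction. The labels give no replicate numbers to pair by, so the libraries of both labels were paired only by sterol, through the sterol term of the fit. Depth limits Tbx2, Tbx4, Tbx5 and the Gm28760,Pitx1 row.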
